A study of Mus musculus with 72 samples.

Results

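The proteasome and immunoproteasome genes of the lung were taken as every gene of the count table whose name starts with Psm, a letter from a to g and a digit. The rule found 45 of the 23930 genes. They were 4 immunoproteasome genes (Psmb8, Psmb9, Psmb10 and Psme1), 28 constitutive subunits and 13 others, which are assembly chaperones, further activators, an inhibitor, tissue forms and 1 gene, Psmc3ip, that the name pattern catches although it encodes a recombination factor. Psmb5, Psme2, Psma3, Psma5 and Psmg3 had no row under these names and are not analysed here. Of the 45, 44 passed the filter on low counts in both fits, and Psmb11, the catalytic subunit of the thymus, did not.

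The proteasome is the barrel-shaped protease that degrades proteins tagged with ubiquitin. Its 20S core has outer alpha rings and inner beta rings, and its 19S cap, built of ATPase and non-ATPase subunits, recognises and unfolds the substrate. Cells exposed to interferon gamma make 3 other catalytic beta subunits: Psmb9 takes the place of Psmb6, Psmb10 that of Psmb7, and Psmb8 that of Psmb5. The resulting immunoproteasome, often joined by the PA28 activator of Psme1 and Psme2, cuts peptides that suit presentation on MHC class I. Leukocytes carry it without stimulation, and epithelial cells of the lung make it in inflammation.

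All animals lacked Gprc5a (Gprc5a-/-), a G protein-coupled receptor of lung epithelium, and whole pieces of lung or tumors dissected out with a needle were profiled with an amplicon panel that reads each gene through an amplicon. NNK is a carcinogenic nitrosamine of tobacco. Normal-appearing lung was taken from 10 unexposed animals aged 8 weeks (baseline), from 10 animals aged 16 weeks when NNK exposure ended, from 9 aged 28 weeks (3 months later) and from 10 aged 44 weeks (7 months later). In 16 of the exposed animals tumors were also taken, numbering 4 in 3 animals when exposure ended, 6 in 4 animals after 3 months and 23 in 9 animals after 7 months. Later time groups had no unexposed animals of the same age among the samples used here. NNK, age and time since exposure thus cannot be told apart, and all comparisons against baseline share the same baseline lungs. Gprc5a had at most 4 counts in any of the 72 libraries, and 41 of them had 0. Libraries held 7459147 to 21822522 counts. In these bulk samples, fewer cells of a type and less RNA per cell cannot be told apart.

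The promoters of the inducible genes and of the constitutive subunit Psmb6 are shown, and that of Psmb7 is not. Each is the RefSeq window on GRCm38.p6 from 250 bases before to 50 bases after the start site, 5′ to 3′ on the strand of the gene. Capitals mark matches on either strand to an interferon response element (GAAA, NN, GAAA), a gamma-activated site (TTC, NNN, GAA, bound by STAT proteins) or an antioxidant response element (TGAC, NNN, GC). Each window held at most 1 match, so no motif overlapped another there. Psmb8 lies at chr17:34197945-34198244 (+), Psmb9 at chr17:34187281-34187580 (-), Psmb10 at chr8:105938343-105938642 (-), Psme1 at chr14:55578244-55578543 (+) and Psmb6 at chr11:70525107-70525406 (+).
Psmb8: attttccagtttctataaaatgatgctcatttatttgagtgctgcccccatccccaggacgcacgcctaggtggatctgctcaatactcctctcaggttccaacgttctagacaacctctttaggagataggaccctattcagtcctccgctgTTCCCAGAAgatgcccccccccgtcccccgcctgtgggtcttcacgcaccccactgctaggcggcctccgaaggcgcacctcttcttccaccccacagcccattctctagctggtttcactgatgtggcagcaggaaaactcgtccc
Psmb9: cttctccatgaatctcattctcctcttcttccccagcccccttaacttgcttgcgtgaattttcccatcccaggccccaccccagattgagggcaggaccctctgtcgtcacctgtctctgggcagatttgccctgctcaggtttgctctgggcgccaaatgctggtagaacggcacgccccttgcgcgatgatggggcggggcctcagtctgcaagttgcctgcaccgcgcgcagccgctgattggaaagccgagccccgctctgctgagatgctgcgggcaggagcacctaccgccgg
Psmb10: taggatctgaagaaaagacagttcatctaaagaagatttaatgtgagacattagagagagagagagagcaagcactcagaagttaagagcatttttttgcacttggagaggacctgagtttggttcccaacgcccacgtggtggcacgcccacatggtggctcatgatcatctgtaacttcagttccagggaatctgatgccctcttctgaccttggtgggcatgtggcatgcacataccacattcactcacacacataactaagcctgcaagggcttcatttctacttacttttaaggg
Psme1: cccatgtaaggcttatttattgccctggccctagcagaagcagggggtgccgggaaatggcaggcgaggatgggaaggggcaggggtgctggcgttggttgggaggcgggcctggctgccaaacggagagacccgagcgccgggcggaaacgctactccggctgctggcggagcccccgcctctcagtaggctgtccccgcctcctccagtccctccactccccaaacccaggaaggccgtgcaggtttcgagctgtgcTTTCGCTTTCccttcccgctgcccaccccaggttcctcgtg
Psmb6: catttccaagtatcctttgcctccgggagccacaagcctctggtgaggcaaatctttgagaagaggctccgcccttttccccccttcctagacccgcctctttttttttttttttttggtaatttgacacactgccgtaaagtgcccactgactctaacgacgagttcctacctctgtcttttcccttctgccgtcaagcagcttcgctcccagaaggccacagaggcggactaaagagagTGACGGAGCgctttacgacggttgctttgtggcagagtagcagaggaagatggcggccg

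Psmb8 held the gamma-activated letters beginning 97 bases before its start site, Psme1 the interferon response letters just behind its start site, and Psmb6 the antioxidant letters beginning 9 bases before its own. No motif was in the windows of Psmb9 or Psmb10. Of all 32851 promoters of the table, 3.44% held the interferon response letters, 8.3% the gamma-activated letters and 12.4% the antioxidant letters. The table had 39 promoters for 37 of the member genes, and 5, 3 and 5 of them held these motifs, in the same order. Psmb9 and Tap1, a peptide transporter of class I loading, start head to head: their windows share 275 bases, from 34187306 to 34187580. A match is a description of the letters, not a measured binding site.

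Levels are given as CPM, read counts scaled to the size of the library with TMM, a factor that evens out library composition, and each gene is compared with itself only, since amplicons differ in how well they amplify. In normal lung, Psmb8 (lowest, median and highest library) lay at 67.7, 74.7 and 137 CPM at baseline, at 59.2, 91.7 and 217 CPM at the end of exposure, at 71.4, 90.9 and 117 CPM at 3 months and at 60.3, 120 and 209 CPM at 7 months. Psmb9 lay at 17.8, 26.8 and 54.0 CPM at baseline, 14.9, 41.6 and 73.1 CPM at the end of exposure, 14.4, 30.6 and 65.8 CPM at 3 months and 19.7, 41.6 and 62.2 CPM at 7 months. The ranges of both genes overlapped between all times; 4 of 10 lungs at 7 months were above the highest baseline lung for Psmb8 and 3 of 10 for Psmb9.
Psmb10 had medians of 55.6, 53.9, 62.7 and 53.8 CPM in the order of time, and Psme1 had medians of 333, 249, 233 and 297 CPM. The medians of the constitutive counterparts were 80.3, 85.5, 75.5 and 72.7 CPM for Psmb6 and 137, 135, 112 and 117 CPM for Psmb7. None of these 6 genes passed the test in any comparison of normal lungs.
The median coefficient of variation between animals was higher for the 4 immunoproteasome genes than for the 28 constitutive subunits at every time. It was 26.7%, 42.1%, 28.8% and 32.1% in the order of time, against 17.9%, 22.6%, 19.6% and 24.2%. The ranges of both classes overlapped at every time. The 12 other genes, without Psmb11, had medians of 19.5%, 23.1%, 20.9% and 33.3%.

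**Figure D1:**
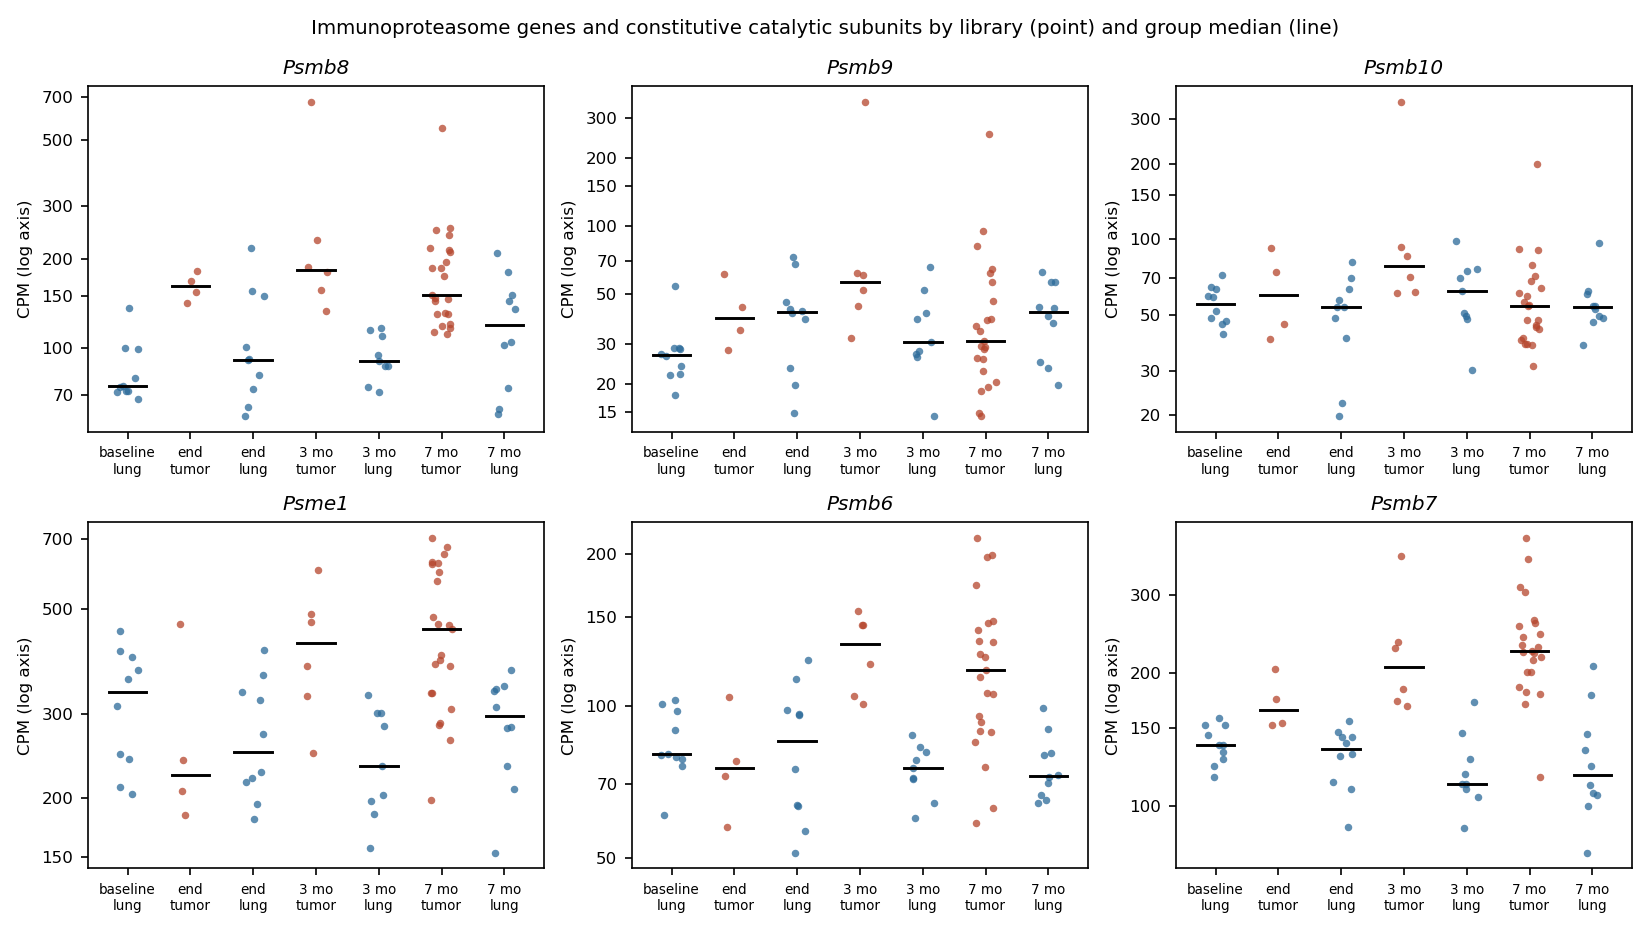
CPM on a log axis of the 4 immunoproteasome genes and the constitutive catalytic subunits Psmb6 and Psmb7 in every library (points, tumors red, normal lungs blue) with the group median (line). Psmb8, Psmb9 and Psmb10 each have 1 tumor at 3 months and 1 at 7 months far above the rest; in Psmb6 and Psmb7 the same tumors are not the highest, and the highest Psmb7 at 3 months (368 CPM) is another tumor.

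Over time in normal lung the data showed small, mostly downward differences of constitutive subunits and upward differences of Psmb8 and Psmb9 that did not pass the test. At the end of exposure 2 of the 44 tested genes fell against baseline and none rose, while 4.11% of all genes tested were called, 2.5% up and 1.61% down. Psmd1, the scaffold subunit of the 19S base, fell by 0.60 ± 0.18 on the log2 scale (SE; edgeR quasi-likelihood test, adjusted p = 0.0456), and had 27.6, 48.2 and 62.0 CPM (lowest, median and highest) at the end of exposure against 52.5, 73.1 and 92.0 CPM at baseline. Psmd5, a chaperone of 19S assembly, fell by 0.53 ± 0.16 (edgeR, adjusted p = 0.0465), with 25.7, 35.8 and 45.9 CPM at the end of exposure against 40.6, 52.3 and 75.8 CPM at baseline. For Psmd1, 7 of 10 lungs at the end of exposure were below every baseline lung. Both calls lie close to the threshold: no member was called when any 1 of baseline lungs 2, 3, 4, 5 and 8 or of end-of-exposure lungs 1, 3, 4, 9 and 10 was left out, and none without the 5 lungs over 300 CPM of the heart muscle myosin Myh6.

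At 3 months no member was called by edgeR, DESeq2 or limma-voom, where 1.72% of all genes were called by edgeR, 1.09% up and 0.637% down; 9 of the 44 (20.5%) were under an unadjusted p of 0.05, as were 12% of all genes. Psmb8 differed from baseline by 0.15 ± 0.22 on the log2 scale and Psmb9 by 0.36 ± 0.26 (SE). All 28 constitutive subunits had a fitted level below baseline, with a median log2 fold change of -0.23, while the median of all genes tested was 0.0074.

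At 7 months 4 members were called against baseline, 1 up and 3 down, or 9.09% of the tested members, where 12.8% of all genes were called, 7.52% up and 5.31% down. Psma4, a subunit of the alpha ring, fell by 0.83 ± 0.22 on the log2 scale (SE; edgeR, adjusted p = 0.0124): it had 16.7, 63.2 and 131 CPM at 7 months and 101, 117 and 201 CPM at baseline, with 7 of 10 lungs below every baseline lung. Psmd1 fell by 0.67 ± 0.18 (edgeR, adjusted p = 0.0116), with 20.02, 44.5 and 77.6 CPM at 7 months against the baseline levels given above. Psmg2, a chaperone that helps build the alpha ring, fell by 0.41 ± 0.13 (edgeR, adjusted p = 0.0343) to 8.72, 13.5 and 16.8 CPM at 7 months, against 12.4, 17.9 and 22.6 CPM at baseline, a call lost when any 1 of 7 lungs was left out. The 1 gene that rose was Psma8, the alpha subunit of male germ cells, and it did so at a trace level. It had 0.595, 1.67 and 3.07 CPM at 7 months against 0.343, 0.683 and 1.46 CPM at baseline. It was higher by 1.05 ± 0.29 on the log2 scale (edgeR, adjusted p = 0.0137), with 7 of 10 lungs above every baseline lung.
Psmb8 was higher than baseline by 0.52 ± 0.21 on the log2 scale (edgeR, adjusted p = 0.0987) and Psmb9 by 0.53 ± 0.25 (adjusted p = 0.157), which the test did not call. Psmb10 differed by 0.02 ± 0.20 and Psme1 by -0.17 ± 0.18 (SE). Without the 2 lungs of the fewest counts, both at 7 months, 8 members were called and Psmb8 was 1 of them, at 0.69 (edgeR, adjusted p = 0.0219). The count was also 8 without lung 3 or lung 4 of 7 months alone, and 7 without baseline lung 7 or end-of-exposure lung 3.

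The 28 constitutive subunits lay below baseline in their fitted level in 26 cases at the end of exposure, in 28 at 3 months and in 24 at 7 months, with median log2 fold changes of -0.19, -0.23 and -0.21. The medians of all genes tested were -0.0023, 0.0074 and 0.0186. The 4 immunoproteasome genes had medians of 0.11, 0.16 and 0.27 in the same comparisons. At 7 months the alpha ring genes ran from -0.83 to 0.02, and the structural beta subunits from -0.48 to -0.04. These counts describe fits that share the baseline lungs. Markers of other cells differed at 7 months as well: 3 of 5 heart muscle markers fell against baseline, among them Tnnt2 by 2.09 ± 0.61 on the log2 scale (edgeR, adjusted p = 0.0206). Of 6 fibroblast markers 3 fell, among them Col3a1 by 1.18 ± 0.24 (edgeR, adjusted p = 0.00099). Of 10 epithelial markers 2 fell, Krt19 by 0.79 ± 0.18 (edgeR, adjusted p = 0.0038) and Cdh1 by 0.59 ± 0.18 (adjusted p = 0.0279). Sftpc (0.76 ± 0.29), Scgb1a1 (0.74 ± 0.39), Cldn18 (0.68 ± 0.31) and Sftpb (0.15 ± 0.21) had higher fitted levels that were not called. Epcam, Krt8, Krt18 and Nkx2-1 had lower ones, also not called. The summed epithelial markers ran from 17490 to 126400 CPM (median 57320) at 7 months, against 25640 to 54940 CPM (median 36220) at baseline. Of 7 endothelial markers 1 rose and 1 fell. The summed heart muscle markers ran from 160 to 1187 CPM at 7 months against 229 to 5326 CPM at baseline, and the fibroblast markers from 477 to 929 CPM against 574 to 1389 CPM. The part of these cells in the levels of the subunits was not tested.

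Between the later times no member was called. At 3 months against the end of exposure 1.01% of all genes were called, at 7 months against the end of exposure 5.75% (3.27% up, 2.48% down), and at 7 months against 3 months 0.0537% (0.0335% up, 0.0201% down). Under an unadjusted p of 0.05 there were 2, 1 and 1 of the 44, where 13.2%, 20.9% and 13.2% of all genes were, and DESeq2 and limma-voom called none. Psmb8 differed by -0.20 ± 0.22, 0.18 ± 0.21 and 0.38 ± 0.22 on the log2 scale (SE) in these comparisons, in the same order.

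**Figure D2:**
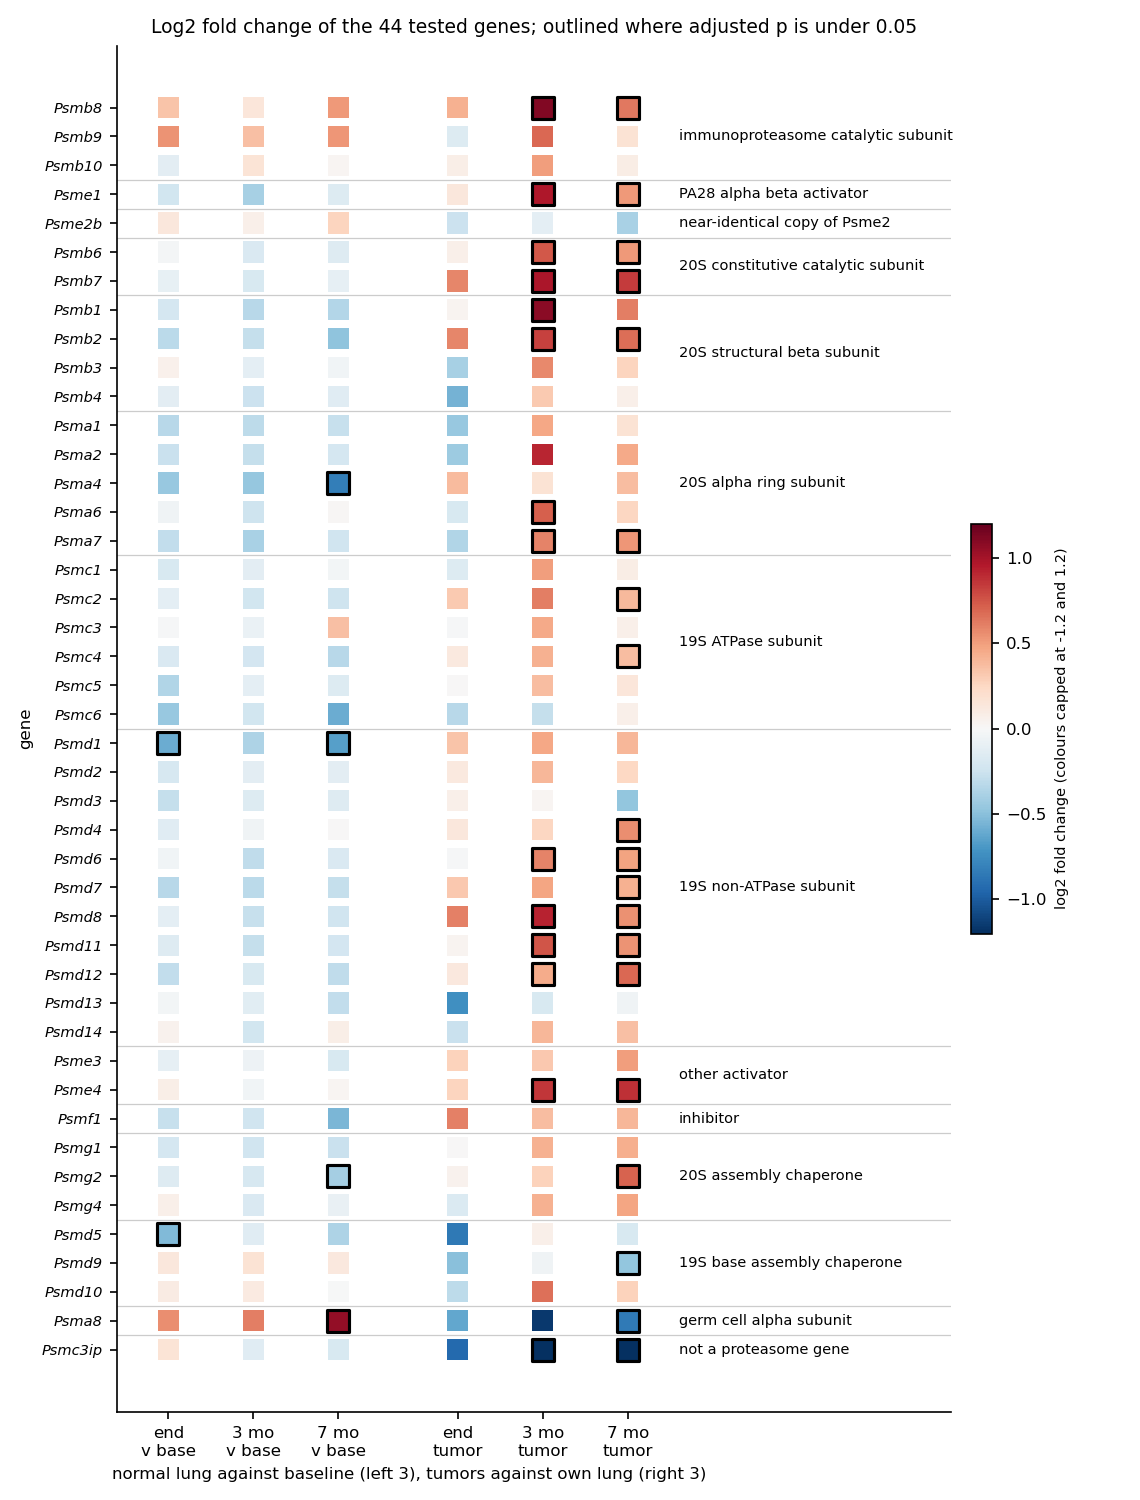
Log2 fold change (colour) of the 44 tested genes, in rows by role, in normal lung at each time against baseline (left columns) and in tumors against the own lung of the animal (right columns); black outlines mark an adjusted p under 0.05. Pale blue prevails on the left with 6 outlined squares in all, and red prevails in the tumors at 3 and 7 months, where 13 and 16 genes rose.

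The medians of Psmb8 and Psmb9 were above baseline at every later time, and so was that of a sum of leukocyte markers, while Psmb10 and Psme1 did not follow. Without Lyz2, which alveolar type 2 cells also express, the summed level of 18 leukocyte markers had medians of 454 CPM at baseline, 510 CPM at the end of exposure, 671 CPM at 3 months and 788 CPM at 7 months, with ranges of 352 to 672, 290 to 1041, 324 to 802 and 538 to 1204 CPM. No marker of the list was at 0 throughout. Of the 19 tested with Lyz2, 5 rose at 7 months against baseline and none fell, and Cd8a (-0.66 ± 0.45 on the log2 scale) and Cd4 (-0.55 ± 0.40) had lower fitted levels. With this sum as a covariate, an alternative added after seeing the data, the difference at 7 months was -0.02 for Psmb8 and -0.0015 for Psmb9, so both changed sign, and 4 members were called; with Lyz2 in the sum none was called. The part of these cells in the result was not tested. H2-Aa, a class II gene that was nearly absent from many animals and abundant in others, was above 500 CPM in all 9 lungs at 3 months and had a median of 0.355 CPM at baseline; with it as a covariate the count at 7 months was 5.
Genes that work beside the immunoproteasome in class I presentation were read from a list. Of the 14 genes of class I antigen processing outside the rule, 2 rose at 7 months against baseline and none fell. That was 14.3%, near the 12.8% of all genes called there. H2-K1, a class I heavy chain, rose by 1.04 ± 0.23 on the log2 scale (edgeR, adjusted p = 0.0026) and H2-Q7, of the same family, by 1.62 ± 0.39 (adjusted p = 0.006). The same pair rose at 3 months, where 1.72% of all genes were called, and none of the 14 was called at the end of exposure. Class I heavy chains are close copies of each other, so the split of reads between them is uncertain. H2-Aa levels differed between these same animals, and whether the rises of H2-K1 and H2-Q7 go with them was not tested. Of the 13 genes of interferon signalling, Irf7 alone was called against baseline, up by 0.95 ± 0.22 at the end of exposure (edgeR, adjusted p = 0.0079).
Of the 16 proteasome partners outside the rule (shuttle proteins, deubiquitinases and regulators), Ubqln1, which ferries ubiquitinated proteins to the proteasome, fell by 0.87 ± 0.19 at the end of exposure against baseline (edgeR, adjusted p = 0.0054), and no other partner was called against baseline.

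Tumors were compared with the normal lung of the same animal, all tumors of an animal being summed. Averaged over the 3 times, 12 of 28 constitutive subunits, Psmb8 and Psme1 rose in tumors, and Psmb9 and Psmb10 did not pass the test. In all, 18 of 44 members were called, 15 up and 3 down, where 44% of all genes tested were called, 21.5% up and 22.5% down. The share of members called, 40.9%, was thus near that of all genes, while 34.1% of members rose and 6.82% fell. The median log2 fold change of the 44 was 0.28, and that of all genes -0.01. With total counts in place of TMM the median of all genes moved by -0.21, and 6 members were then called up and 4 down. Psmb1, Psmb6 and Psme1 were among those no longer called. The median of the members relative to that of all genes was 0.29 with either scaling.

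Psmb7, the constitutive subunit with trypsin-like activity, rose most of the proteasome genes: its log2 fold change averaged over the 3 times was 0.80 ± 0.14 (SE; edgeR, adjusted p = 0.0002). At the end of exposure its 3 animals had 166, 155 and 203 CPM in tumors against 131, 89.8 and 132 CPM in their lungs, and at 3 months the 4 animals had 175, 255, 210 and 237 CPM in tumors against 113, 127, 89.7 and 114 CPM in lung. Over all animals tumors averaged 216 ± 39.5 CPM and lungs 124 ± 33.1 CPM (SD, n = 16), and tumors were higher in 14 of 16 animals. Psmb6, the constitutive subunit with caspase-like activity, was 112 ± 30.2 CPM in tumors and 77.3 ± 10.1 CPM in lungs and rose by 0.44 ± 0.12 (edgeR, adjusted p = 0.0063), with 13 of 16 animals higher.
Psmb8 was 193 ± 77.1 CPM in tumors and 118 ± 44.3 CPM in own lungs (SD, n = 16 animals), higher in 14 of 16 animals, with a log2 fold change of 0.73 ± 0.19 (SE; edgeR, adjusted p = 0.0048). Psme1, the alpha chain of PA28, was 390 ± 125 CPM in tumors and 260 ± 69.5 CPM in lungs, higher in 13 of 16, with 0.54 ± 0.15 (edgeR, adjusted p = 0.0082).
Psmb9 was 59.4 ± 47.9 CPM in tumors and 42.6 ± 15.3 CPM in lungs, higher in 10 of 16 animals, with 0.23 ± 0.25 (edgeR, adjusted p = 0.47). Psmb10 was 75.7 ± 42.5 CPM in tumors and 61.4 ± 16.9 CPM in lungs, higher in 9 of 16 animals, with 0.22 ± 0.14 (edgeR, adjusted p = 0.206). Psme2b, a near-identical copy of Psme2 whose reads may come from either, differed by -0.25 ± 0.15 (edgeR, adjusted p = 0.198). Whether the effects on these genes differ from that on Psmb8 was not tested.

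**Figure D3:**
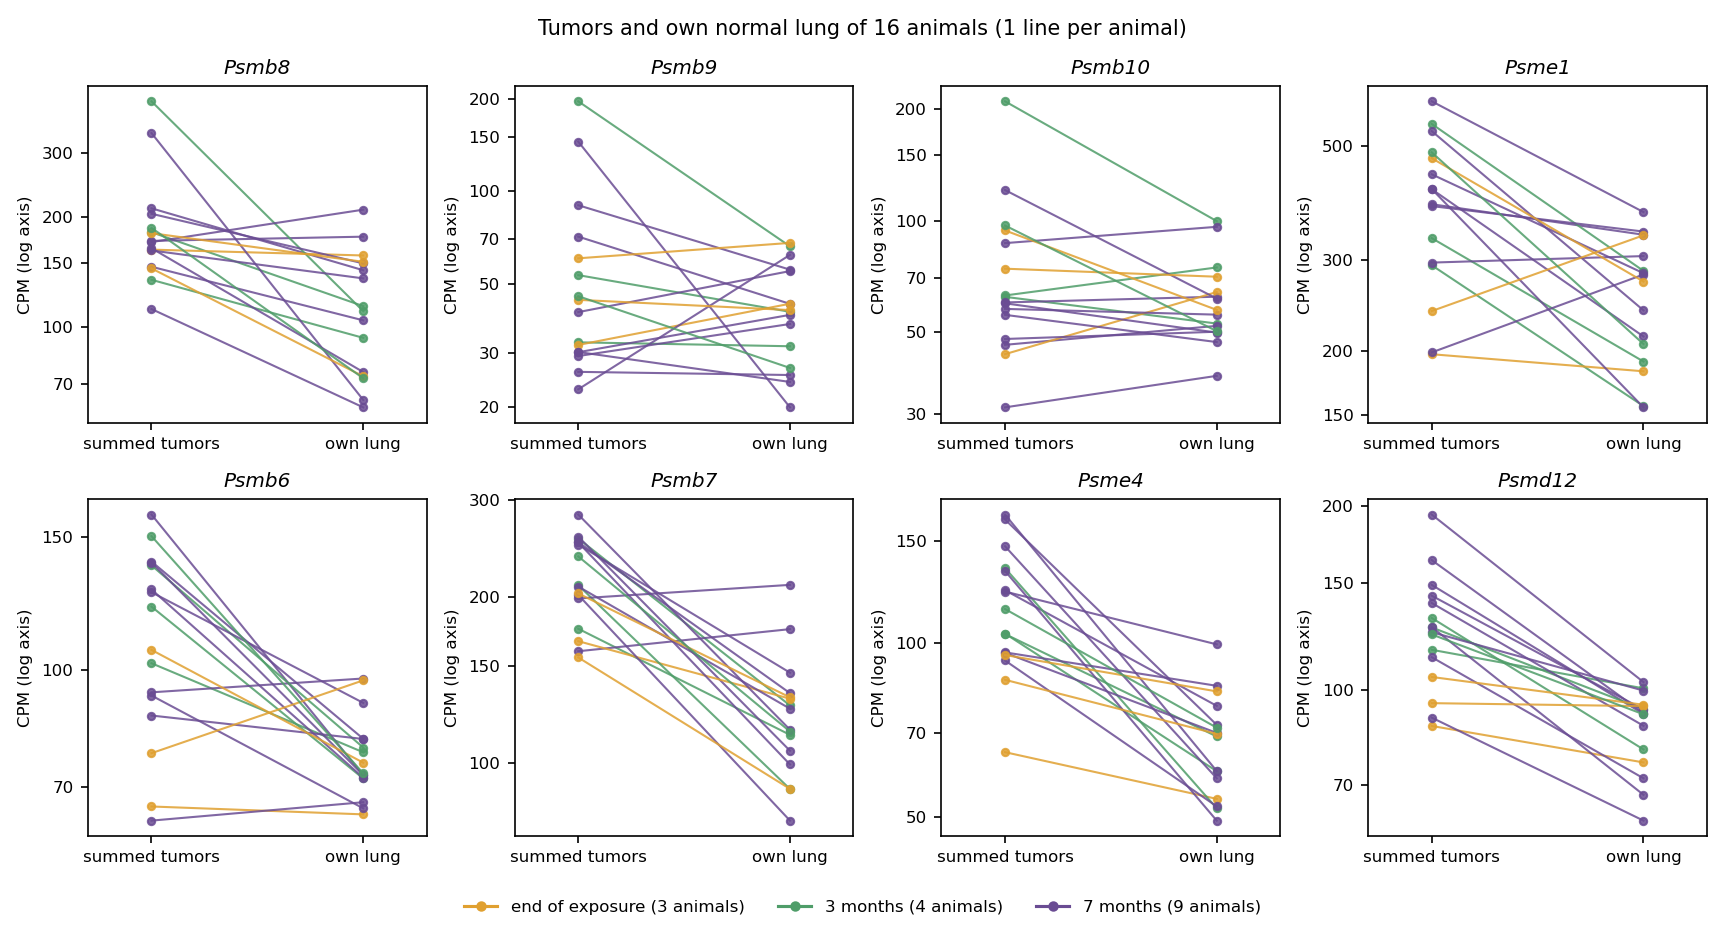
CPM on a log axis in the summed tumors (left) and the own normal lung (right) of each of 16 animals for 8 genes, with a line per animal coloured by time. Lines of Psme4 and Psmd12 all run down to the lung side, while those of Psmb9 and Psmb10 cross, with 10 and 9 of 16 animals higher in tumors.

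Other roles followed the constitutive catalytic pair to differing degrees. Averaged over the times, 12 of 28 constitutive subunits rose and none fell, with a median log2 fold change of 0.31. Of the 11 non-ATPase subunits of the 19S cap 6 rose, among them Psmd8 by 0.69 ± 0.14 (edgeR, adjusted p = 0.00074), of the lid: it was 232 ± 71.0 CPM in tumors and 145 ± 38.7 CPM in lungs (SD, n = 16). Of the 6 ATPases of the cap, which unfold the substrate, 2 rose, with a median of 0.17 over all 6. Of the 4 structural beta subunits 2 rose, Psmb2 by 0.69 ± 0.15 (edgeR, adjusted p = 0.0012) and Psmb1 by 0.58 ± 0.20 (adjusted p = 0.0291), and of the 5 alpha ring genes none did, although all 5 were higher, at 0.06 to 0.31. At single times, Psma6 rose by 0.71 ± 0.23 at 3 months (edgeR, adjusted p = 0.0356), and Psma7 by 0.60 ± 0.19 at 3 months (adjusted p = 0.0358) and 0.53 ± 0.13 at 7 months (adjusted p = 0.0038).
Psme4, the activator PA200, stood out by its regularity. It was 115 ± 28.4 CPM in tumors and 67.6 ± 13.9 CPM in lungs (SD, n = 16), higher in 16 of 16 animals, with a log2 fold change of 0.67 ± 0.12 (SE; edgeR, adjusted p = 0.00042). Psmd12, a lid subunit, was also higher in 16 of 16 animals, at 127 ± 27.5 CPM in tumors and 87.4 ± 12.4 CPM in lungs. In normal lung over time neither gene was called.
The 3 genes that fell were not parts of the mature proteasome of the lung. Psmc3ip fell by 1.24 ± 0.24 on the log2 scale (edgeR, adjusted p = 0.00065), with 2.17 ± 0.91 CPM in tumors and 5.16 ± 2.52 CPM in lungs (SD), lower in 16 of 16 animals. Psma8 fell by 0.87 ± 0.24 (edgeR, adjusted p = 0.0061) to 0.842 ± 0.442 CPM in tumors, against 1.45 ± 0.55 CPM in lungs. Psmd9, a chaperone of 19S assembly, fell by 0.34 ± 0.13 (edgeR, adjusted p = 0.044), with 27.7 ± 8.96 CPM in tumors and 34.7 ± 7.16 CPM in lungs. Psmb11 had a median of 0 CPM in tumors at the end of exposure and at 3 months and 0.0529 CPM at 7 months, and 0.0509 to 0.132 CPM in the 4 groups of lung, with no more than 23 counts in any library, so no difference was detectable at this depth.

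By time, no member was called in tumors at the end of exposure (3 animals), by edgeR, DESeq2 or limma-voom, and none was under an unadjusted p of 0.05, as 22.2% of all genes were, while 4.61% of all genes were called, 1.97% up and 2.65% down. Psmb8 was 163, 145 and 181 CPM in tumors of the 3 animals against 157, 73.4 and 151 CPM in their lungs. Psmb9 was 31.8, 44.5 and 60.7 CPM in tumors against 43.3, 41.3 and 68.1 CPM in lungs, and Psmb10 was 43.6, 94.1 and 74.2 CPM in tumors against 64.2, 57.4 and 70.6 CPM in lungs. Tumors were higher in all 3 animals for Psmb8, and in 1 and 2 of 3 for Psmb9 and Psmb10.
At 3 months (4 animals) 14 members were called, 13 up and 1 down, 31.8% of the 44, where 19.7% of all genes were called, 9.52% up and 10.2% down. Psmb8 had 135, 182, 414 and 187 CPM in tumors against 93.6, 114, 111 and 72.6 CPM in lungs, higher by 1.11 ± 0.34 on the log2 scale (edgeR, adjusted p = 0.0308). Psmb9 had 32.4, 53.6, 196 and 45.8 CPM in tumors against 31.5, 40.7, 66.4 and 26.8 CPM in lungs, with 0.69 ± 0.44 (edgeR, adjusted p = 0.277). Psmb10 had 62.3, 62.8, 210 and 97.0 CPM in tumors against 52.8, 74.7, 99.7 and 50.3 CPM in lungs, with 0.50 ± 0.25 (edgeR, adjusted p = 0.155). The third of these animals was highest for all 3 genes, in tumors and, for Psmb9 and Psmb10, in lung as well.
Psmb1 (1.08 ± 0.37), Psmb7 (0.98 ± 0.25), Psme1 (0.97 ± 0.27), Psmd8 (0.93 ± 0.25), Psme4 (0.86 ± 0.22) and Psmb2 (0.82 ± 0.27) had the largest rises after Psmb8 among the called members at 3 months (log2 fold change ± SE). Psma2, at 0.92 ± 0.32 and higher in 4 of 4 animals, missed the threshold (edgeR, adjusted p = 0.0542), and Psmc3ip fell by 1.57 ± 0.45. Without the animal of 3-month lung 3 or that of lung 8 there were 0 calls, and without that of lung 1 there were 5, and 9 members were called without the animal block. With total counts in place of TMM, 1 member was called up and 2 down, as the median of all genes moved by -0.32.
At 7 months (9 animals) 19 members were called, 16 up and 3 down, 43.2% of the 44, where 37.8% of all genes were called, 18% up and 19.8% down. Psmb8 was 187 ± 64.2 CPM in tumors and 124 ± 52.1 CPM in lungs (SD, n = 9), higher in 7 of 9 animals, with 0.63 ± 0.23 (edgeR, adjusted p = 0.0366). This call was lost with RLE size factors (0.58, edgeR, adjusted p = 0.0507), with total counts and without the animal block. It was also lost with the leukocyte markers including Lyz2 as a covariate, and when the animal of lung 2, 4, 5, 6 or 10 was left out. Psmb9 was 54.0 ± 41.2 CPM in tumors and 40.3 ± 15.3 CPM in lungs, higher in 5 of 9. Psmb10 was 63.0 ± 26.3 CPM in tumors and 57.0 ± 16.5 CPM in lungs, higher in 4 of 9. Psme4 (0.87 ± 0.15), Psmb7 (0.84 ± 0.17), Psmg2 (0.70 ± 0.19), Psmd12 (0.69 ± 0.10) and Psmb2 (0.67 ± 0.18) had the largest rises among the called members (log2 fold change ± SE), and Psmc3ip fell by 1.21 ± 0.30 and Psma8 by 0.85 ± 0.28. With total counts in place of TMM, 3 members were called up and 5 down, the median of all genes having moved by -0.25.
The tumor effect at 7 months was tested against that of both earlier times. No member passed, and of all genes 0% were called, by edgeR, DESeq2 or limma-voom among the members; 2 of the 44 (4.55%) were under an unadjusted p of 0.05, as were 5.36% of all genes. The effect on Psmb8 differed by -0.14 ± 0.34 and that on Psmb9 by -0.09 ± 0.45 on the log2 scale (SE), errors that leave room for large differences.

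The ratios of 2 inducible subunits to the constitutive subunits they replace were lower in the summed tumors than in the own lung of most animals. The inducible genes themselves were not lower in most: Psmb10 was higher in tumors in 9 of 16 animals and Psmb9 in 10. Psmb7 and Psmb6, the constitutive genes, were higher in 14 and 13 of 16. The ratio of Psmb10 to Psmb7, which does not depend on how libraries are scaled, had medians of 0.283 in tumors and 0.477 in own lungs, and was lower in tumors in 15 of 16 animals (3 of 3, 4 of 4 and 8 of 9 in the order of time). The ratio of Psmb9 to Psmb6 had medians of 0.438 in tumors and 0.562 in lungs and was lower in tumors in 13 of 16 animals (2 of 3, 3 of 4 and 8 of 9), while its means were 0.549 in tumors and 0.547 in lungs. Of the 33 single tumors, 29 had a lower Psmb10 to Psmb7 ratio and 28 a lower Psmb9 to Psmb6 ratio than the own lung; tumors of 1 animal share that lung. The sizes of these ratios depend on the amplicons, and only their differences between samples can be read. The 1 animal with a higher Psmb10 to Psmb7 ratio in tumors, at 0.608 against 0.293 in its lung, was an animal of 7 months, and its Psmb9 to Psmb6 ratio was 1.67 in tumors and 0.246 in lung. The pair of Psmb8 and Psmb5 could not be formed. Over all genes of the classes, the mean log2 CPM of the 4 immunoproteasome genes minus that of the 28 constitutive subunits was higher in tumors in 10 of 16 animals and lower in 6, which Psmb8 and Psme1 weigh upward. In normal lung this class difference had medians of -0.49 at baseline, -0.21 at the end of exposure, -0.20 at 3 months and 0.01 at 7 months, with ranges of -0.80 to 0.11, -0.82 to 0.60, -0.94 to 0.38 and -0.77 to 0.46, which overlap. These ratios were chosen with earlier results known and are given with no test.

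**Figure D4:**
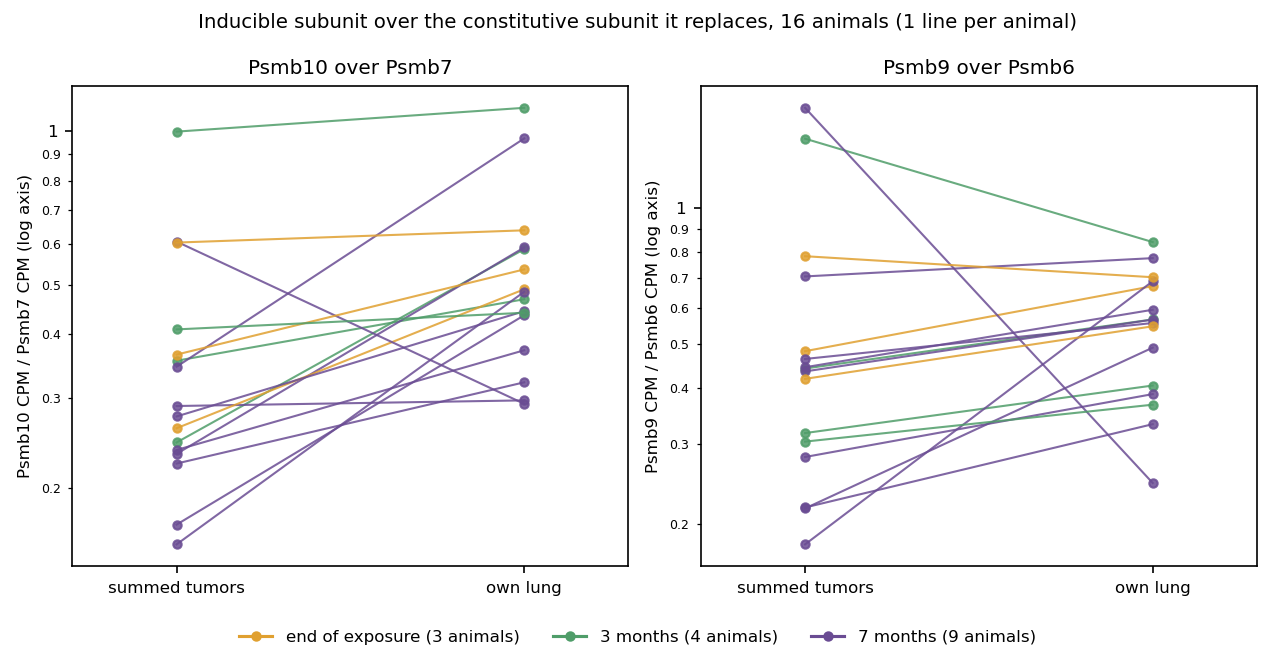
Ratio of CPM of Psmb10 to Psmb7 (left panel) and of Psmb9 to Psmb6 (right panel) on a log axis in the summed tumors and the own lung of each of 16 animals, coloured by time. Lines rise toward the lung side in 15 and 13 of 16 animals.

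A pair of tumors stood far apart in the 3 inducible catalytic genes. Tumor 4 of 3 months had 674 CPM of Psmb8, 354 CPM of Psmb9 and 353 CPM of Psmb10, where the second highest tumor of that time had 231, 61.6 and 93.4 CPM. Tumor 8 of 7 months had 552, 255 and 200 CPM of the same genes, where the second highest of 23 had 253, 94.5 and 91.5 CPM. The constitutive counterparts were not high in them: Psmb7 was at 169 CPM in the first, the lowest of its group, and at 181 CPM in the second, and Psmb6 was at 121 and 92.9 CPM. Psme1 was at 603 CPM, the highest of 6, and at 571 CPM, the eighth highest of 23.
A second tumor of each of these animals lacked the rise, with 188 CPM of Psmb8 and 60.8 CPM of Psmb9 in tumor 5 of 3 months, and 119 and 28.4 CPM in tumor 7 of 7 months. All 6 T and NK cell genes of the leukocyte list were highest of their group in both tumors of the pair, as were 13 and 12 of the whole 19. Of the 13 genes of interferon signalling, 10 were highest in the first tumor and 8 in the second. Of the 45 members, 17 were highest in the first, out of 6 tumors, and 6 in the second, out of 23. The share of all genes that was highest in each of these tumors is not given here. These counts thus cannot be read as particular to the lists. The genes given next were chosen after their values were seen. Cd3e, a chain of the T cell receptor complex, was at 345 and 372 CPM (second highest 46.5 and 49.1 CPM in their groups), Cd8a at 60.4 and 59.9 CPM (5.77 and 5.5 CPM), and Ifng, the gene of interferon gamma, at 19.6 and 12.5 CPM (0.732 and 0.737 CPM). Irf1, a transcription factor that interferon gamma induces, was at 585 and 485 CPM (158 and 205 CPM), and Tap1, head to head with Psmb9, at 400 and 254 CPM (73.7 and 59.0 CPM). The summed leukocyte markers without Lyz2 were 2884 and 4444 CPM in the pair, the highest of their groups, whose medians were 1067 and 894 CPM; the part of these cells in the result was not tested. Tumor 4 of 3 months also had the fewest counts of any tumor, 8506299.
Without both tumors Psmb8 was higher in tumors than in own lung by 0.59 averaged over the times (edgeR, adjusted p = 0.0014), by 0.84 at 3 months (adjusted p = 0.0179) and by 0.48 at 7 months (adjusted p = 0.0196), and 18 members were called on average over the times, 14 up and 4 down.

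Cell markers also differed between tumors and own lung, where 44% of all genes were called, 21.5% up and 22.5% down. Of 10 epithelial markers 6 rose in tumors averaged over the times and 1 fell. All 6 markers of dividing cells rose and all 5 heart muscle markers fell. Of 7 endothelial markers 4 fell, while Emcn rose by 1.26 ± 0.19 on the log2 scale. Among the fibroblast markers Col1a1, Col1a2, Col3a1 and Pdgfrb rose, and Dcn and Pdgfra fell. Of 19 leukocyte markers 5 rose and 4 fell. The summed leukocyte markers, of which Lyz2 makes up most, ran from 3969 to 31500 CPM in tumors at the end of exposure, 11410 to 57060 CPM at 3 months and 10270 to 117100 CPM at 7 months, against 4804 to 9577, 5911 to 12030 and 2424 to 31980 CPM in the normal lungs of these times. With this sum as a covariate 2 members were called on average over the times, 0 at 3 months and 1 at 7 months, and Psmb8 at 7 months was at -0.22. Without Lyz2 in the sum, 18, 16 and 22 members were called, and Psmb8 stayed higher in tumors and called in each of these comparisons. The part of epithelial or dividing cells in the rise of the constitutive subunits was not tested.
Of 16 partners of the proteasome outside the rule, averaged over the times, 4 rose and 3 fell in tumors, or 43.8%, where 44% of all genes were called, with a median log2 fold change of 0.22. Nfe2l1, a transcription factor known to drive proteasome genes, rose by 0.78 ± 0.10 (SE; edgeR, adjusted p = 2.62e-05), by 1.17 ± 0.21 at the end of exposure (edgeR, adjusted p = 0.0185), 0.68 ± 0.18 at 3 months (adjusted p = 0.0164) and 0.47 ± 0.12 at 7 months (adjusted p = 0.0057). Ngly1, which deglycosylates the protein of Nfe2l1, fell by 0.65 ± 0.15 averaged over the times (edgeR, adjusted p = 0.0025). Zfand5, which stimulates proteolysis by the proteasome, rose by 0.49 ± 0.12 (edgeR, adjusted p = 0.0031), and Shfm1, a small subunit of the 19S lid, by 0.62 ± 0.17 (adjusted p = 0.0078).
In class I antigen processing 6 of 14 genes (42.9%) rose in tumors averaged over the times and none fell, with a median of 0.44. Of all genes 21.5% rose and 22.5% fell. The share of the list that was called was thus near the 44% of all genes called in either direction. The rises were of the chaperone Calr by 1.19 ± 0.11 (edgeR, adjusted p = 1.82e-06), of Pdia3 by 0.79 ± 0.10 (adjusted p = 2.71e-05), of the light chain B2m by 1.11 ± 0.20 (adjusted p = 0.00026) and of Canx by 0.72 ± 0.15 (adjusted p = 0.0008), each part of the loading of class I molecules, and of 2 others. Of the 13 genes of interferon signalling 3 rose and 2 fell, or 38.5%, a share near the 44% of all genes. The interferon gamma receptor chain Ifngr2 rose by 0.89 ± 0.13 (edgeR, adjusted p = 5.81e-05) and Ifnar2, a chain of the type I receptor, by 0.89 ± 0.20 (adjusted p = 0.002). Stat2, which transmits type I interferon signals, fell by 0.47 ± 0.11 (edgeR, adjusted p = 0.0029) and Irf7, which interferon induces, by 0.67 ± 0.18 (adjusted p = 0.0057).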

How the data were processed

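RNA of 72 samples was read with an amplicon panel (Ion AmpliSeq), per the labels' protocols. The authors deposited whole-number read counts per gene; their aligner, build and counter: not given in the sources used here. Columns were matched to samples by name, and 2 columns that matched none were not used. Tests used R 4.3.3 and the package edgeR 4.0.16 (filterByExpr, TMM, robust quasi-likelihood F tests, Benjamini-Hochberg over all genes tested, threshold 0.05): 39 normal lungs in 1 fit (14907 genes), and tumors summed per animal against the own lung, with animal as a block (16 animals, 15457 genes). Animals come from the sample titles. Tumors and own lung deviated together by a median r of 0.277 over 16 pairs, 11 of them over 0.1. Replicates are animals, and no pair of libraries agreed within sampling noise. CPM, SD and ratios were computed from the counts with TMM; tumor sums were scaled in their own fit. Library totals of 7459147 to 21822522 counts limit precision for genes near 1 CPM. Motifs were searched in RefSeq promoters of GRCm38.p6 with Python 3.11.15.

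Always named were Psmb8, Psmb9, Psmb10, Psme1, Psmb6 and Psmb7, then up to 8 called members of largest change per comparison, members that failed the filter, and up to 4 called genes per pathway list. Beyond this, Psma2, Psma6, Psma7, Psmd12, Psmd9 and Psme2b, and Cd3e, Cd8a, Ifng, Irf1 and Tap1 in single tumors, were named after their values were seen. Members and lists were chosen with earlier results of these data known. Alternatives were RLE and total-count scaling, no filter, DESeq2 1.42.0, limma-voom 3.58.1, covariates, subsets and leaving out each animal.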

Additional observations from a re-analysis of the deposited data

Results flagged for a closer look

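Among 17 named genes, the highest or lowest library stood apart from its group in 10 of 102 groups. The rule was Dixon's ratio in groups of 4 to 10, which flags about 1 in 20 groups of independent, normally distributed values. In all 10 it was the highest library, and several flags share a library. An excess over 1 in 20 thus cannot be read from the count. In tumors at 3 months, tumor 4 was far above the next for Psmb8 (674 CPM), Psmb9 (354 CPM) and Psmb10 (353 CPM), tumor 3 for Psmb7 (368 CPM, next 235 CPM) and tumor 2 for Psmc3ip (5.7 CPM, next 1.9 CPM). In normal lungs at 7 months, lung 3 was far above the next for Psmb10 (96.9 CPM, next 62.7 CPM) and Psmb2 (172 CPM, next 115 CPM), and lung 4, which has the fewest counts of all libraries, for Psmc3ip (13.5 CPM, next 5.46 CPM). At baseline, lung 9 was highest for Psmb8 (137 CPM, next 101 CPM) and Psmb9 (54.0 CPM, next 28.9 CPM), and it is 1 of the 5 lungs over 300 CPM of Myh6.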

How the results depend on the processing

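Counts of called members moved by over 1.5 times as follows. At the end of exposure against baseline the 2 calls became 0 with total counts, with no filter, with the leukocyte covariate and when the 5 lungs richest in Myh6 were dropped, and 0 to 3 when single lungs were left out. At 7 months against baseline the 4 calls became 8 with DESeq2, 0 with the leukocyte covariate and 8 without the 2 lungs of the fewest counts, and 3 to 8 when single lungs were left out; against the end of exposure 0 became 1 without those 2 lungs, with 0 to 1 when single lungs were left out. In tumors the 18 calls over the times became 10 with total counts and 2 with the leukocyte covariate (14 to 20 without single animals); the 14 at 3 months became 3 with total counts, 8 with no filter, 0 with the leukocyte covariate and 9 with no replicate block (0 to 16 without single animals); the 19 at 7 months became 8 with total counts and 1 with the leukocyte covariate (14 to 23). Lyz2 makes up most of the sum used as this leukocyte covariate. Without Lyz2 in the sum, 18 members were called in tumors over the times, 16 at 3 months and 22 at 7 months. In normal lung at 7 months against baseline, 4 were called without it. The cause was not tested. Without the replicate block, 17 members were called over the times and 18 at 7 months, and the block comes from the animals in the titles. For the other comparisons, single lungs or animals left out gave 0 calls throughout. Reversed were Psmb8 (-0.0191) and Psmb9 (-0.0015) at 7 months against baseline with the leukocyte covariate without Lyz2 (added after seeing the data), and Psmb8 (-0.22) in tumors at 7 months with the leukocyte covariate. Of 1293 refits of 39 named log2 fold changes, 1130 kept direction and side of the threshold, 156 lost the call, 4 gained it and 3 changed sign. Psma8 and Psmc3ip rest on few counts, and with 3 and 4 animals at the earlier tumor times small differences could not be detected.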
